A study of Bos taurus with 106 samples.

Results

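SERPINA3-3, TF, RARRES2 and S100A12 encode secreted plasma and acute phase proteins whose liver transcripts were followed through the dry period and early lactation of dairy cows. They are 4 of the 4452 gene symbols on a spotted cDNA array, found by symbol and gene ID (615103, 280705, 508990 and 282467), and each was read by 1 array element printed as 2 spots. They were chosen by their measured values in these data: SERPINA3-3 on days -65, -14 and 28 relative to calving, TF on days -65 and -14, S100A12 on days -14 and 1, and RARRES2 in the feeding comparison on days -30 and -14. Comparisons of the same kind that touch those days are given as descriptions, with no p-value.

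The liver makes most plasma proteins, and in inflammation it raises some of them (positive acute phase proteins) and lowers others (negative ones). SERPINA3-3 belongs to the family of alpha-1-antichymotrypsin, inhibitors of serine proteases that exist in several near-identical copies in cattle. TF, transferrin, carries iron in plasma. RARRES2 encodes chemerin, a precursor released by liver and fat tissue that is cut by proteases into a ligand attracting immune cells, while S100A12, calgranulin C, is a calcium-binding alarm protein best known from neutrophils and a ligand of the receptor AGER.

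The animals were 8 Holstein cows that received, for the 65 days without milking before calving, a moderate-energy feed of 1.60 Mcal/kg (a figure that 1 array's label leaves out). The 4 restricted cows (6877, 6952, 7045 and 7105) ate about 80% of the NRC requirement, and the 4 ad libitum cows (6886, 7050, 7161 and 7187) about 120%. Liver was sampled on days -65, -30, -14, 1, 14, 28 and 49, giving 53 cow-days: all 4 restricted cows each time, and 4 ad libitum cows except on day -65 (3) and day 49 (2). Feed after calving is not given in the sources used here. Each cow-day was hybridised on 2 arrays of opposite dye orientation against a reference made from other tissues without liver, and both arrays were averaged to 1 sample. All values are log2 ratios of liver over that reference, centred on each array's median, so a level says how far a gene lies above the typical element and levels of different genes cannot be compared.

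All 4 genes had a value in 53 of 53 cow-days, and all 53 values of each lay above 0. The ranges were 5.94 to 8.99 for SERPINA3-3, 3.12 to 5.87 for TF, 3.70 to 6.38 for RARRES2 and 0.59 to 3.42 for S100A12. Over cow-days, the liver-in-Cy3 and liver-in-Cy5 arrays correlated with r = 0.868 for S100A12, 0.794 for SERPINA3-3, 0.673 for TF and 0.588 for RARRES2. The tissue was read by 3 of 14 listed hepatocyte markers (APOA1, ASGR2 and SLC10A1), all above 0, whereas all 9 elements of 6 stellate cell and fibroblast markers lay below 0. All 7 endothelial elements, 11 of 12 macrophage and Kupffer cell elements and 1 of 4 bile duct cell elements also lay above 0. A level above 0 therefore does not single out hepatocytes. Array quality moved with the days: agreement between the 2 orientations of a cow-day averaged 0.702 on day -65, 0.531 on day -14, 0.444 on day 1, 0.480 on day 14 and 0.666 on day 28. Its part in the results was not tested beyond the alternatives given in the closing section.

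**Figure D1:**
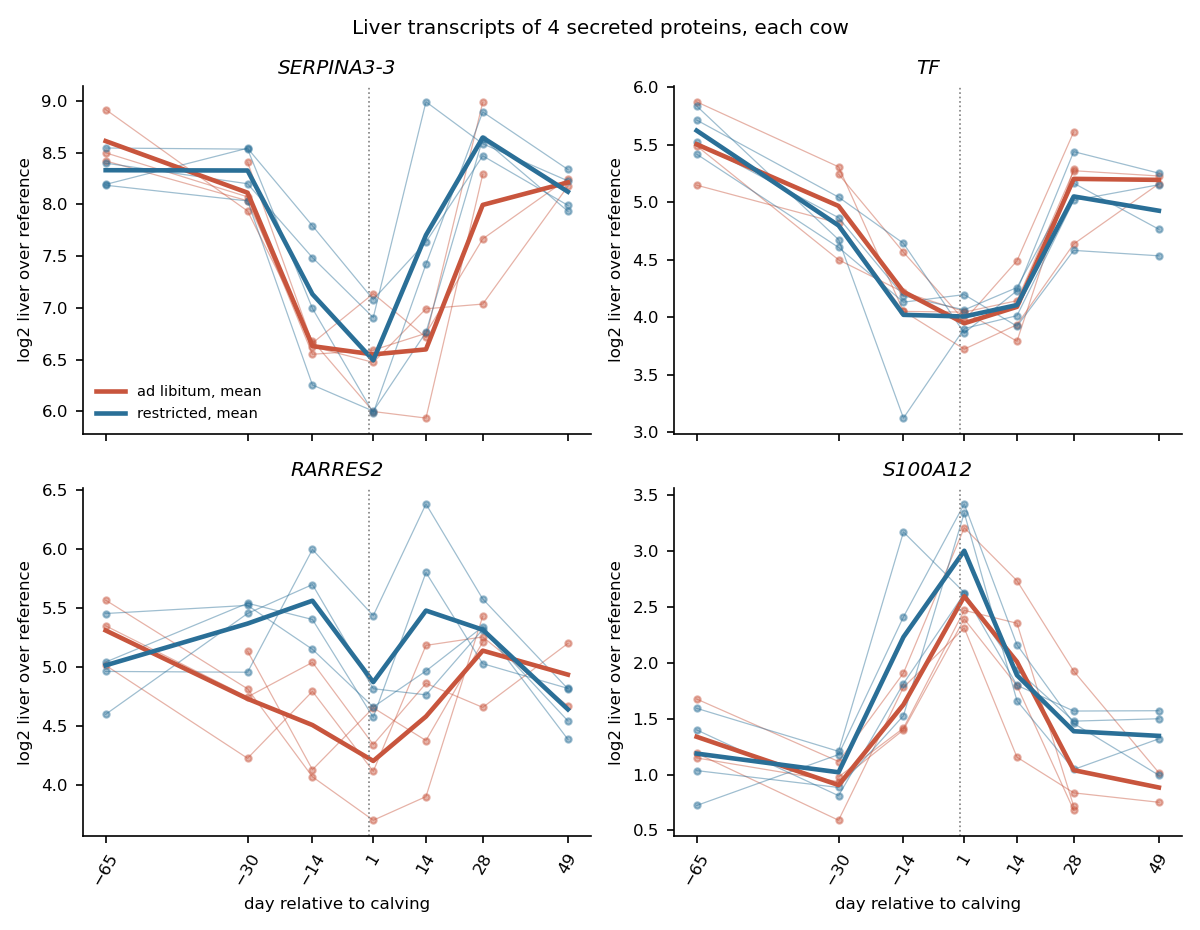
Log2 ratio of liver over reference (vertical) of the 4 genes against day relative to calving (horizontal); thin lines and points are single cows, thick lines the mean of each feeding level, and the dotted line marks calving. SERPINA3-3 and TF are low on days -14 to 14, S100A12 is highest on day 1, and RARRES2 separates the feeding levels on day -14.

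Transferrin transcripts were low from late gestation to 2 weeks after calving and had risen again by day 28. From day -30 to day 1 TF fell by 0.91 on the log2 scale (1.87-fold, SE 0.16), and from day 14 to day 28 it rose by 1.03 (2.04-fold, SE 0.16). On day -30 the 8 cows lay between 4.50 and 5.31 with a median of 4.84. On day 1 they lay between 3.72 and 4.19 with a median of 4.01, so that every cow was below every day -30 value. On day 14 the range was 3.79 to 4.49 and the median 4.08, again without overlap with day -30. On day 28 the cows lay between 4.58 and 5.61, median 5.22, above all values of day 14.

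In limma's moderated test with cow as a random block and Benjamini-Hochberg adjustment over 8061 elements, TF passed an adjusted p of 0.05 for day 1 against day -30 (adjusted p = 2.13e-05). It also passed for day 14 against day -30 (difference -0.78 ± 0.16 SE, adjusted p = 0.000483) and for day 28 against day 14 (adjusted p = 1.5e-05). All 8 cows moved the same way in each of the 3 comparisons. The share of all elements called was 37.7% for day 1 against day -30, 16% for day 14 against day -30 and 8.62% for day 28 against day 14. It was 0.347% for day 28 against day -30 and 0% for day 49 against day -30, where limma called 0 elements (250 at an unadjusted p of 0.05). Days 28 and 49 were not told apart from day -30, with differences of 0.24 (95% interval -0.073 to 0.56, adjusted p = 0.463) and 0.18 (-0.17 to 0.54, adjusted p = 0.911). Markers of other cell types moved in the same comparison. From day -30 to day 1, 6 of 9 stellate cell and fibroblast elements rose and none fell, and the mean of the 9 elements ran over cows from -3.06 to -2.75 on day -30 and from -2.90 to -0.77 on day 1. Of 7 endothelial elements 4 fell and 1 rose, with their mean at 1.75 on day -30 and 1.18 on day 1 and overlapping ranges. Of 12 macrophage and Kupffer cell elements 3 fell and none rose, and their mean ran from 2.72 to 3.47 on day -30 and from 2.12 to 2.81 on day 1. Of 3 hepatocyte markers, SLC10A1 fell, from a mean of 5.65 to 3.86 (adjusted p = 1.03e-08, limma), and APOA1 and ASGR2 did not pass. The part of these markers in the falls of TF and SERPINA3-3 was not tested.

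Without centring of the arrays, day 1 against day -30 was -0.42 (adjusted p = 0.0696) while the median of all elements stood at 0.52, and day 14 against day -30 was -0.51 (adjusted p = 0.081). Day 28 against day 14 was 0.56 without centring (adjusted p = 0.0294), 2.13 with arrays scaled to 1 spread, the same median absolute deviation (adjusted p = 4.02e-08) and 0.60 after division of each cow-day by the slope of its strong elements (those with a mean of size 2 or more) on their all-sample mean (adjusted p = 0.0394). In the arrays with liver in Cy5 alone it was 0.76 (adjusted p = 0.0649).

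As descriptions, TF averaged 5.57 ± 0.26 (SD, n = 7) on day -65 and 4.12 ± 0.46 (n = 8) on day -14. It was lower in 7 of 7 cows on day -30 than on day -65, and lower in 8 of 8 cows on day -14 than on day -30. In the order of daily means, day -65 stood above day 28 by 0.45 and day -30 above day -14 by 0.76, the only neighbouring steps larger than the larger of their SDs. Cow 6877 held the lowest TF value of all, 3.12 on day -14.

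None of 13 feeding comparisons passed for TF. On day 1 the ad libitum cows averaged 3.95 ± 0.15 (SD, n = 4) and the restricted cows 4.00 ± 0.15 (n = 4). Averaged over days 1, 14 and 28, the difference was 0.026 with a 95% interval from -0.27 to 0.33 (adjusted p = 0.938). Of all elements, limma called 0% for feeding on days -65, -30, 28 and 49, before calving and in the change across calving. The share was also 0% for the feeding difference in the change from day -14 to day 1 or to day 28. It was 6.08% on day -14, 10.7% on day 1, 15.3% on day 14 and 10.4% for the mean of days 1, 14 and 28.

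SERPINA3-3 was also low around calving. It fell by 1.70 on the log2 scale (3.25-fold, SE 0.23) from day -30 to day 1 and was still lower by 1.07 ± 0.23 (2.10-fold) on day 14. On day -30 the 8 cows lay between 7.94 and 8.54 with a median of 8.14. On day 1 they lay between 5.99 and 7.14 with a median of 6.53, below all day -30 values. On day 14 they spread from 5.94 to 8.99, median 6.88, and overlapped with day -30.

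Day 1 against day -30 (limma, adjusted p = 3.3e-07) and day 14 against day -30 (adjusted p = 0.00105) passed the test, with 8 of 8 and 7 of 8 cows lower; the exception on day 14 was cow 6952, at 8.99 against 8.20 on day -30. Without the cow-days whose orientations correlated under 0.6, the day 14 difference was -0.80 (adjusted p = 0.171). Day 49 was not told apart from day -30 (difference -0.048, 95% interval -0.57 to 0.47, adjusted p = 0.97). That comparison called 0% of all elements, while day 1 against day -30 called 37.7% and day 14 against day -30 called 16%. Among the values that chose the gene, day -14 lay 1.60 ± 0.24 (SE) below day -65 in 7 of 7 cows, and day 28 lay 1.44 ± 0.23 above day -14 in 8 of 8. In the order of daily means only the step from day 49 to day 14, by 1.00, exceeded the larger SD of its neighbours.

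Of 13 feeding comparisons of SERPINA3-3, 1 passed, that of day 14. The others included day 1 (0.057, limma adjusted p = 0.943), day 28 (-0.65, adjusted p = 1), day 49 (0.10) and the mean of days 1, 14 and 28 (-0.57, adjusted p = 0.204). Of all elements, 10.7% were called on day 1, 0% on days 28 and 49 and 10.4% for that mean. On day 14 the ad libitum cows read 5.94, 6.72, 6.99 and 6.75, and the restricted cows 6.77, 8.99, 7.64 and 7.42. The groups overlapped, because ad libitum cow 7161 (6.99) lay above restricted cow 6877 (6.77). The difference was -1.10 ± 0.33 (SE; 2.15-fold lower in ad libitum cows, limma adjusted p = 0.0162), in a comparison in which 15.3% of all elements were called. It lost its call in 9 of 21 alternatives, all named in the closing section. Among them, it no longer passed without cow 6886, 6952 or 7045, with values over all cows left out in turn between -1.42 and -0.68. Dividing each cow-day by its slope of strong elements gave -0.30 (adjusted p = 0.647), and agreement between orientations on that day averaged 0.398 in ad libitum and 0.561 in restricted cows. The 198 liver-enriched elements, those averaging at least 2, had a median difference of -0.33 in the same comparison, against -0.082 over all elements.

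SERPINA3-3 is 1 of 4 genes named SERPINA3 in RefSeq (assembly ARS-UCD2.0), which lie side by side, and the other members were not named on the array. A long cDNA spot can bind transcripts of near-identical copies, so the value may sum over several of them. LOC338050, a protein-coding neighbour 2 genes away and chosen for that position, had an element of its own. LOC338050 fell by 0.55 ± 0.18 (SE) from day -30 to day 1 (limma adjusted p = 0.0163). Its day 14 level differed from day -30 by -0.052 (adjusted p = 0.871). Between feeding levels on day 14 LOC338050 was lower by 0.96 ± 0.26 in ad libitum cows (adjusted p = 0.00956).

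**Figure D2:**
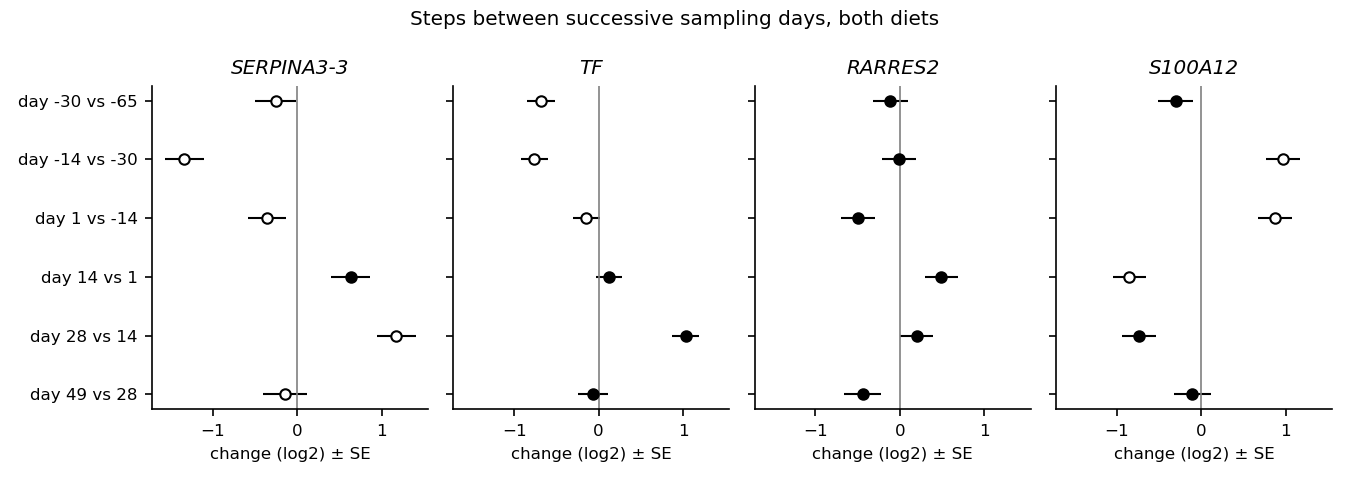
Change in log2 ratio between successive sampling days (horizontal, with SE) for the 4 genes, both feeding levels weighted equally; filled points were open to a test and open points are days that chose the gene. TF rises by 1.03 from day 14 to day 28 while S100A12 falls by 0.74.

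S100A12 ran the other way: its transcript was highest on the day after calving and had declined by day 28. On day -30 the 8 cows lay between 0.59 and 1.21 with a median of 0.96, and on day 1 between 2.31 and 3.42 with a median of 2.62. These groups did not overlap, and the rise was 1.84 ± 0.20 (SE; 3.57-fold, 8 of 8 cows), a description because day 1 chose the gene. Of that rise, 0.97 had come by day -14, in 8 of 8 cows, and 0.87 followed from day -14 to day 1, in 7 of 8. The exception was restricted cow 6877, at 3.17 on day -14 and 2.63 on day 1.

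On days the choice did not use, S100A12 was higher on day 14 than on day -30 by 0.99 ± 0.20 (SE; 1.98-fold, limma adjusted p = 0.000498), with all 8 cows higher. Day 14 values ran from 1.16 to 2.73, median 1.87, and overlapped slightly with day -30, since cow 7187 (1.16) lay below the highest day -30 value of 1.21. From day 14 to day 28 it fell by 0.74 ± 0.20 (1.67-fold, adjusted p = 0.0134) in 8 of 8 cows, to a range of 0.68 to 1.92 that overlapped with day 14. That fall missed the threshold without cow 6886, 7050 or 7105 (values without each cow -0.84 to -0.62), on arrays with liver in Cy5 alone (-0.74, adjusted p = 0.0858) and with arrays scaled to 1 spread (-0.42, adjusted p = 0.166). Days 28 and 49 were not told apart from day -30, with differences of 0.25 (adjusted p = 0.563) and 0.15 (adjusted p = 0.912). Those 2 comparisons called 0.347% and 0% of all elements, so a lack of calls there was common to nearly all genes. Day 14 against day -30 called 16% and day 28 against day 14 called 8.62%.

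None of 13 feeding comparisons passed for S100A12. The widest within a day was on day -14, with the ad libitum cows at 1.40, 1.41, 1.91 and 1.78 and the restricted cows at 3.17, 1.81, 1.53 and 2.41. The groups overlapped, and the difference was -0.60 with a 95% interval from -1.18 to -0.033 (limma adjusted p = 0.186, 6.08% of elements called). For feeding on days -65, -30, 28 and 49 and before calving, 0% of all elements were called, so a lack of calls there was common to all genes. Among listed neutrophil markers the array held FCGR3A alone (1 of 12), whose daily mean moved between 1.90 and 2.15 and did not pass for day 1 against day -30 (0.15 ± 0.19, adjusted p = 0.556). The partners S100A8 and S100A9 were not measured here. In bulk tissue, a change in the number of cells of a type and a change in RNA per cell cannot be told apart.

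RARRES2 was lower in ad libitum than in restricted cows before calving. On day -14 the ad libitum cows read 4.07, 4.13, 4.79 and 5.04 and the restricted cows 5.15, 5.99, 5.70 and 5.40, so every restricted cow lay above every ad libitum cow. The difference was -1.05 ± 0.28 (SE), and as the mean of days -30 and -14 it was -0.85 ± 0.13 (1.80-fold lower in ad libitum cows), again without overlap. Both are descriptions, since these days chose the gene. The share of elements called was 6.08% on day -14 and 0% for the mean of both days, where limma called 0 elements (1043 at an unadjusted p of 0.05). The 198 liver-enriched elements had a median difference of -0.48 on day -14, with 31 called lower and 1 higher, against 0.0047 over all elements, and of -0.21 for the mean of both days; their part in the difference of RARRES2 was not tested. With arrays scaled to 1 spread the day -14 difference turned to 0.035 and the mean of both days to -0.09.

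After calving the same order was seen in days the choice did not use. Averaged over days 1, 14 and 28, the ad libitum cows stood at 4.64 ± 0.22 (SD, n = 4) and the restricted cows at 5.22 ± 0.39 (n = 4). The cows of the 2 levels did not overlap, and the difference of -0.58 ± 0.19 (SE; 95% interval -0.998 to -0.164) missed the threshold (limma adjusted p = 0.0893), in a comparison with 10.4% of elements called. It was -0.16 (adjusted p = 0.806) with the agreement between orientations as a covariate, -0.23 after division by the slope of strong elements and -0.30 with arrays scaled to 1 spread. On day 14 alone the ad libitum cows read 3.90, 4.38, 5.18 and 4.86 and the restricted cows 4.96, 6.38, 4.76 and 5.80. They overlapped, and the difference was -0.90 ± 0.28 (1.86-fold, adjusted p = 0.0241, 15.3% of elements called). It was lost without cow 6886, 6952, 7050 or 7105 (values without each cow -1.14 to -0.60) and was -0.35 (adjusted p = 0.446) after division by the slope of strong elements. Of the 3 hepatocyte markers, SLC10A1 passed in the same comparison (-0.83 ± 0.29, adjusted p = 0.0419), and ASGR2 (-0.66 ± 0.27, adjusted p = 0.0901) and APOA1 (-0.20 ± 0.34, adjusted p = 0.755) did not; their part in the result was not tested. On day 1 the difference was -0.67 (adjusted p = 0.14, 10.7% of elements called), on day 28 -0.18, on day -65 0.30 and on day 49 0.29, none of which passed. On days -65, 28 and 49, 0% of all elements were called, and day -65 stood at the start of the 65 days of feeding.

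**Figure D3:**
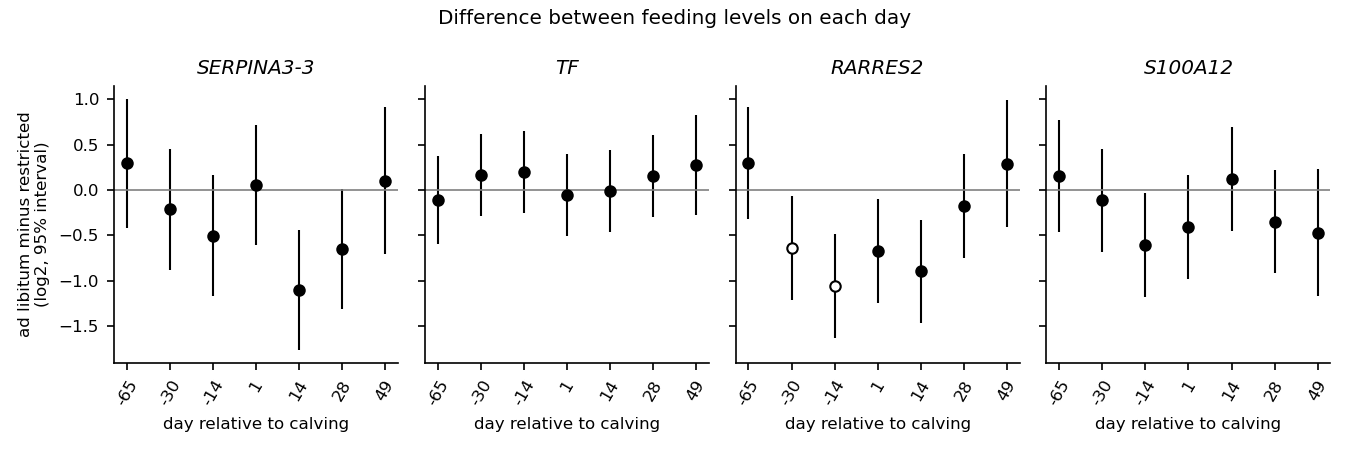
Ad libitum minus restricted difference in log2 ratio (vertical, with 95% intervals) on each day relative to calving (horizontal); open points are the days that chose RARRES2. RARRES2 lies below 0 from day -30 to day 28, and its days -30 and -14 are descriptions. Intervals are not adjusted for the number of elements, and of the tested days only day 14 passed for RARRES2. SERPINA3-3 is lowest on day 14 at -1.10, and the TF intervals all include 0.

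Of 13 comparisons of days, 1 passed for RARRES2: it fell by 0.51 ± 0.20 (SE; 1.43-fold) from day -30 to day 1 (limma adjusted p = 0.0391), in 7 of 8 cows. In that comparison 37.7% of all elements were called. The share was 0.112% for day -30 against -65 and 0.397% for day 1 against -14. It was 0.0124% for day 49 against 28 and 0% for day 49 against -30, so a lack of calls there was common to nearly all genes. Day -30 ran from 4.22 to 5.54 with a median of 5.04 and day 1 from 3.70 to 5.43 with a median of 4.61, so the days overlapped. The call was lost without any 1 of 6 cows (6877, 6886, 7045, 7050, 7105 or 7187; values -0.67 to -0.41). It was -0.027 (adjusted p = 0.937) without centring and -0.094 (adjusted p = 0.773) with the agreement between orientations as a covariate. No neighbouring daily means differed by more than the larger of their SDs. The receptors CMKLR1, CMKLR2 and CCRL2 were not measured here, and RARRES1, the 1 gene of 18 in the chemerin list that was, differed by -0.21 from day -30 to day 1 without passing.

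Other genes of the same groups, from lists chosen with earlier results known, moved in both directions around calving. All counts for day 1 against day -30 stand beside 37.7% of all elements called, 22.2% higher and 15.5% lower. From day -30 to day 1, 2 of 9 plasma protein elements rose and 2 fell, with a median of -0.079 beside 0.038 over all elements. CP, the copper-carrying ferroxidase ceruloplasmin and an acute phase protein, rose by 1.31 ± 0.26 (SE, limma adjusted p = 0.000115), from a daily mean of 5.59 to 6.90. Over 22 settings (the reported fit and its alternatives), 0 to 3 plasma protein elements rose and 1 to 4 fell, so CP did not pass in every setting. RBP4, the plasma carrier of retinol, fell by 0.95 ± 0.16 (adjusted p = 1.22e-05), and 1 of 3 elements of IGFBP3, which carries insulin-like growth factors, fell by 0.62 ± 0.18 (adjusted p = 0.00579). The other IGFBP3 elements differed by -0.61 (adjusted p = 0.0772) and 0.076 (adjusted p = 0.796) and did not pass. IGFBP4, of the same family, rose by 0.39 ± 0.15 on 1 of 3 elements (adjusted p = 0.0332), while the others stood at 0.15 and -0.27 without passing.

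Of 6 acute phase elements, against 37.7% of all elements called, CP rose and both elements of CD14 fell, by 1.72 ± 0.22 and 1.51 ± 0.20 (limma adjusted p = 1.1e-07 and 1.34e-07), with a list median of 0.21. CD14, the co-receptor for bacterial endotoxin, is also a macrophage marker. Beside it, CD5L was the only macrophage and Kupffer cell marker among 12 elements to pass, with a fall of 1.33 ± 0.24 (adjusted p = 4.53e-05). Of 3 other serpin elements, 2 fell, among them SERPING1, the inhibitor of complement C1, by 1.67 ± 0.21 (adjusted p = 1.06e-07). Among 14 elements of acute phase signalling, 4 rose and 1 fell: STAT3, which relays interleukin-6 signals, rose by 0.66 ± 0.17 (adjusted p = 0.00203), RELA, a subunit of NF-kappa-B, rose on both elements, by 0.44 ± 0.11 (adjusted p = 0.00153) and 0.67 ± 0.11 (adjusted p = 5.91e-06), and LIFR, a receptor chain for leukaemia inhibitory factor, fell by 1.53 ± 0.20 (adjusted p = 2.2e-07).

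Beside transferrin, 4 of 15 elements for iron handling rose from day -30 to day 1 and 1 fell (37.7% of all elements called), with a list median of 0.092. The risers were CP, PCBP1 (0.39 ± 0.13 SE, limma adjusted p = 0.0166) and both elements of PCBP2 (0.53 ± 0.11 and 0.40 ± 0.12), where PCBP1 and PCBP2 are RNA-binding proteins that also hand iron to ferritin. STEAP4, a metalloreductase, fell by 0.82 ± 0.19 (adjusted p = 0.00111). SLC40A1, the iron exporter ferroportin, had daily means from 3.40 to 3.89 and is not among the calls, and the transferrin receptors TFRC and TFR2 were not measured here. Of 11 elements for S100 proteins and neutrophils, S100A2 rose by 1.02 ± 0.25 (adjusted p = 0.00137) and 1 of 2 elements of CXCL8, a neutrophil attractant, fell by 0.60 ± 0.21 (adjusted p = 0.0231). None of 4 coagulation elements passed. Without centring, 9 of the iron elements and 4 of the S100 elements rose and none fell, as all elements shifted by a median of 0.52.

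**Figure D4:**
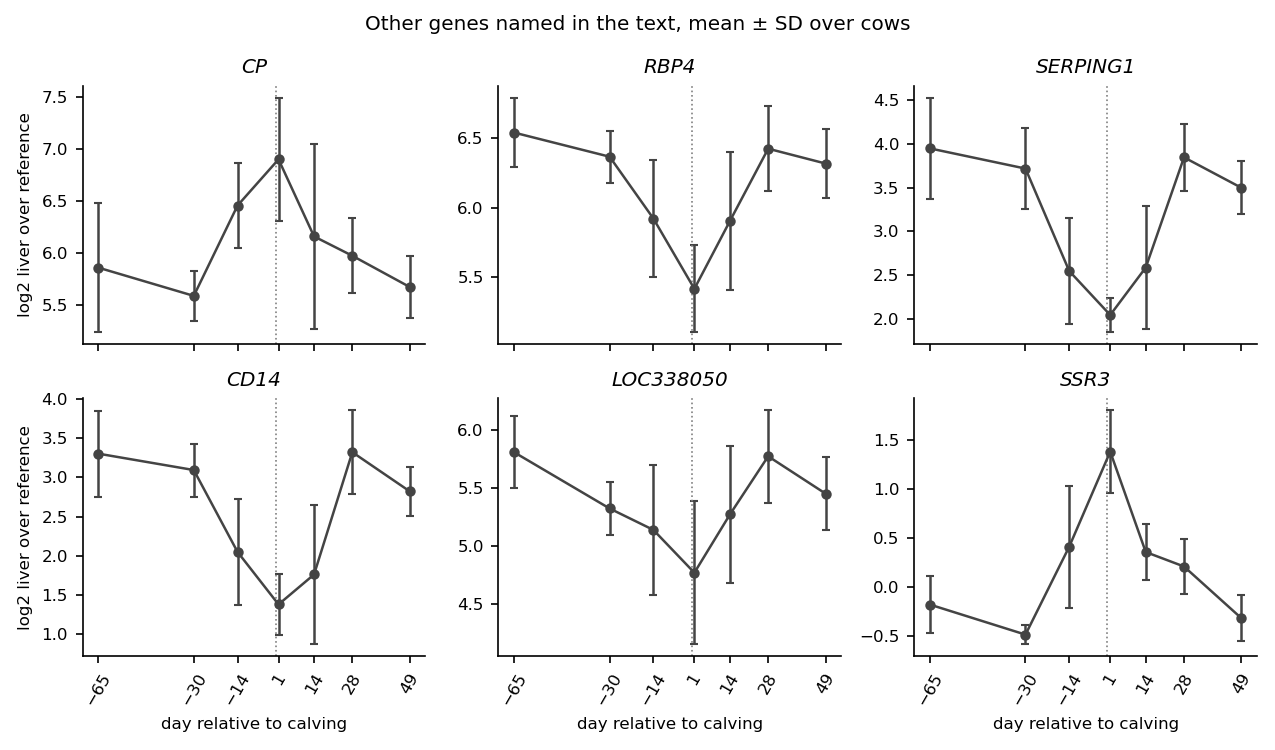
Daily mean log2 ratio of liver over reference with SD over cows (vertical) against day relative to calving (horizontal) for CP, RBP4, SERPING1, 1 of the CD14 elements, LOC338050 and SSR3. CP and SSR3 peak on day 1, and RBP4, SERPING1, CD14 and LOC338050 are lowest there.

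Between feeding levels on day 14, where SERPINA3-3 and RARRES2 were lower in ad libitum cows, 15.3% of all elements were called, 11.6% higher and 3.66% lower. Of the plasma protein elements 1 of 9 was lower, an element of IGFBP4 (-0.69 ± 0.17 SE, limma adjusted p = 0.00533), and of the acute phase elements 1 of 6, 1 of 2 of CD14 (-1.16 ± 0.31, adjusted p = 0.00861). Among S100 and neutrophil elements 3 of 11 were higher: S100A14 (1.14 ± 0.28, adjusted p = 0.00529), 1 of 2 elements of S100G (1.33 ± 0.35, adjusted p = 0.00802) and AGER, the receptor of S100A12 (0.86 ± 0.25, adjusted p = 0.0133). The other S100G element stood at -0.60, of opposite sign, without passing (adjusted p = 0.166). AGER averaged -0.26 over all cow-days, and its SD over cows was 0.05 on day -30 and 0.53 on day 14. PLAT, tissue plasminogen activator, was higher by 0.88 ± 0.25 (adjusted p = 0.0125). Over 22 settings, 0 to 4 elements of the S100 and neutrophil list and 0 to 1 coagulation elements were higher. The part of array agreement in these calls was not tested. None of 14 elements of acute phase signalling passed.

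The 4 genes' values were related over the 53 cow-days to different degrees, which share arrays, days and array quality. SERPINA3-3 and TF had r = 0.780, which was 0.437 once the mean of each feeding level and day was taken out. SERPINA3-3 and S100A12 had r = -0.709 (-0.363 within groups), and TF and S100A12 r = -0.680 (-0.194). RARRES2 went with SERPINA3-3 at 0.528 (0.572 within groups) and with TF at 0.193. Over days -65, -30, 28 and 49 alone (29 cow-days), r was -0.199 for SERPINA3-3 with S100A12 and 0.129 for TF with S100A12. It was 0.362 for SERPINA3-3 with TF, 0.405 for SERPINA3-3 with RARRES2 and 0.032 for TF with RARRES2.

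The genes most like each by correlation over the same 53 cow-days differed among the 4. For SERPINA3-3 they were LOC616364 (r = 0.911), the bile acid importer SLC10A1 (0.901), RBP4 (0.884), CD14 (0.883) and the Wnt receptor FZD4 (0.879). For TF they were FZD4 (0.857), the chemokine scavenger ACKR2 (0.817), SLC10A1 (0.807), LOC616364 (0.785) and SERPINA3-3 (0.780). For RARRES2 they were the lysosomal membrane protein LAMP1 (0.815), GAMT of creatine synthesis (0.779), the lysosomal protease CTSA (0.772), C1QTNF1 (0.764) and the asialoglycoprotein receptor chain ASGR2 (0.763). For S100A12 they were SSR3 of the endoplasmic reticulum translocon (0.855), MYDGF (0.854), FKBP2 (0.831), the endoplasmic reticulum peroxiredoxin PRDX4 (0.831) and ACTR1A (0.818). Once the mean of each feeding level and day was taken out, r ran from 0.23 to 0.46 in the TF set. It ran from 0.48 to 0.74 for SERPINA3-3, 0.69 to 0.77 for RARRES2 and 0.41 to 0.57 for S100A12. Over days -65, -30, 28 and 49 alone (29 cow-days) r for the first gene of each set was 0.454 for LOC616364 with SERPINA3-3, 0.557 for FZD4 with TF, 0.606 for LAMP1 with RARRES2 and 0.343 for SSR3 with S100A12. On those days CD14 had the highest r of the 5 with SERPINA3-3 (0.648) and FKBP2 of the 5 with S100A12 (0.491). The remaining genes of the S100A12 set stood at 0.257 (MYDGF), 0.191 (PRDX4) and -0.024 (ACTR1A).

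**Figure D5:**
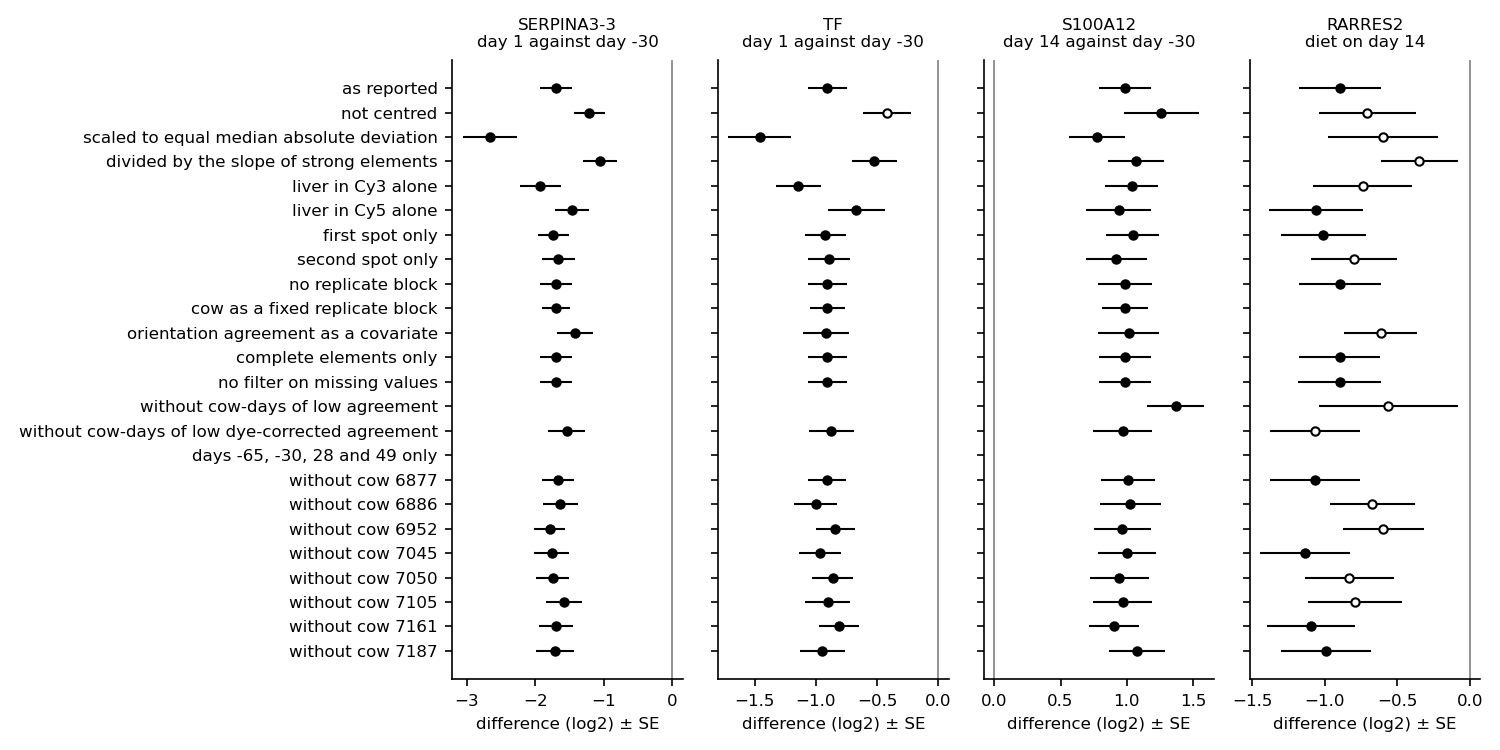
Difference in log2 ratio with SE (horizontal) for 1 tested comparison of each gene as reported and under each alternative (vertical); filled points pass an adjusted p of 0.05, and a blank line is an alternative that gave no value. SERPINA3-3 passes in every alternative that gave a value, between -2.66 and -1.05, whereas the feeding difference of RARRES2 on day 14 does not pass in 12 of 21.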

How the data were processed

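The authors deposited 1 log2 ratio of Cy5 over Cy3 per spot for 106 arrays of 16416 spots. Per the labels, slides were read on a Scanarray scanner and processed with GenePix. How background and normalization were handled is not given in the sources used here. Medians of the arrays ran from -1.69 to 1.80, so they had not been centred. The liver dye came from the titles, since the source text of 2 arrays named the other dye. Ratios were turned to liver over reference, 2 spots averaged, arrays centred on their median and both orientations averaged. Of 8208 elements, 8061 with at least 2 cows in every group were tested and 147 were not; 5598 carry 1 symbol in GEO's platform annotation. Intensities were not used here, so no filter on dim spots was possible. limma 3.58.1 (R 4.3.3) fitted 14 feeding-by-day means with cow as a random block (same animals on all days; correlation 0.0176), and 1 mean per cow for feeding over several days, with Benjamini-Hochberg adjustment and a threshold of 0.05. The fit was tested on simulated data with independent noise. These held no cow effect and no change of array quality with the days, so that test cannot speak to either. Named genes are the 4 genes, their 5 closest by correlation and up to 4 passing genes of each list with the widest change. Members and lists were chosen with earlier results of these data known. Alternatives covered centring, scaling, dye, spots, block, missing values, array agreement and each cow left out.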

Additional observations from a re-analysis of the deposited data

Results flagged for a closer look

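Of 48 groups of 4 cows (1 gene, feeding level and day), 2 held a cow far from the others, where chance gives about 1 in 20. For RARRES2 in restricted cows on day -30, cow 6952 read 4.95 and the others 5.45 to 5.54. Its 2 arrays read 4.79 with liver in Cy3 and 5.11 in Cy5. For S100A12 in ad libitum cows on day 28, cow 7161 read 1.92 and the others 0.68 to 0.84, with 2.16 in Cy3 and 1.69 in Cy5.

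In 2 of 52 comparisons of days, all cows of one feeding level moved up and all of the other down. From day 28 to day 49 SERPINA3-3 rose in both ad libitum cows and was lower in all 4 restricted cows, a difference between levels of 1.38. From day -30 to day 49 RARRES2 did the same, with a difference of 1.18. Only 2 ad libitum cows had a day 49 sample, and neither difference was tested.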

How the results depend on the processing

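Over 75 tested results and 1607 alternatives, 1555 kept their call or its absence, 44 lost the call, 7 gained it and 1 reversed. A change of sign was counted as reversed only where 1 of the 2 fits passed, and otherwise as kept. Only results that passed could lose a call: 3 of SERPINA3-3, 3 of TF, 2 of RARRES2 and 2 of S100A12. All 44 losses fell among these. Where a call was lost the cause was not tested. The call of SERPINA3-3 for feeding on day 14 was lost in 9 of 21 alternatives: without centring, with both scalings, on Cy3 alone, in both removals of cow-days and without cow 6886, 6952 or 7045. SERPINA3-3 for day 1 against day -30 and S100A12 for day 14 against day -30 kept their call in every alternative that gave a value, though the former ran to -2.66 scaled to 1 spread and -1.05 divided by the slope. Calls also held with values over 1.5 times apart for TF at day 1 against -30 (-1.46 scaled, -0.52 by slope) and day 14 against -30 (-1.40 scaled), SERPINA3-3 at day 14 against -30 (-2.16 scaled), RARRES2 at day 1 against -30 (-1.13 scaled) and S100A12 at day 28 against 14 (-1.21 not centred, -1.27 without cow-days of low agreement).

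Without centring: SERPINA3-3 between feeding levels on day 14 -0.91, TF -0.95 (day -14 against -65), 0.38 (28 against -14), -0.42 (1 against -30) and -0.51 (14 against -30), RARRES2 -0.027 (1 against -30) and -0.71 (feeding, day 14), S100A12 -1.34 (28 against -14). Scaled to 1 spread: SERPINA3-3 -2.60 (-14 against -65), -2.64 (-14 against -30), 3.50 (28 against -14), 3.02 (28 against 14) and -0.60 (feeding, day 14), TF -2.04 (-14 against -65) and 2.26 (28 against -14), RARRES2 -0.60 (feeding, day 14), -0.09 (feeding before calving) and, reversed, 0.83 for day 49 against -14 (adjusted p = 0.0262; -0.25 as reported) and 0.035 for feeding on day -14, S100A12 -0.42 (28 against 14). Divided by the slope of strong elements: SERPINA3-3 -0.80 (-14 against -65), 0.73 (28 against -14) and -0.30 (feeding, day 14), TF -0.92 (-14 against -65), RARRES2 -0.085 (1 against -30), -0.35 (feeding, day 14) and -0.60 (feeding before calving).

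Liver in Cy3 alone: feeding on day 14 -1.09 for SERPINA3-3 and -0.74 for RARRES2. Liver in Cy5 alone: TF 0.76 (28 against 14) and -0.49 (14 against -30), RARRES2 -0.37 (1 against -30), S100A12 -0.74 (28 against 14). Second spot only: RARRES2 -0.48 (1 against -30) and -0.80 (feeding, day 14), S100A12 -0.64 (28 against 14). Agreement as a covariate: RARRES2 -0.094 (1 against -30) and -0.62 (feeding, day 14). Without cow-days of agreement under 0.6: SERPINA3-3 -0.80 (14 against -30) and -0.89 (feeding, day 14), RARRES2 -0.56 (feeding, day 14). Without 5 cow-days under 0.7 after dye correction, chosen after seeing the data: -1.17 and -1.07 for feeding on day 14 in SERPINA3-3 and RARRES2, and RARRES2 -0.36 (1 against -30).

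With each cow left out, SERPINA3-3 ran from -1.73 to -1.47 (-14 against -65), 1.28 to 1.60 (28 against -14), -1.79 to -1.58 (1 against -30), -1.30 to -0.96 (14 against -30) and -1.42 to -0.68 (feeding, day 14). TF ran from 0.96 to 1.10 (28 against 14), -1.54 to -1.26 (-14 against -65), 0.86 to 1.10 (28 against -14), -1.001 to -0.812 (1 against -30) and -0.82 to -0.70 (14 against -30). RARRES2 ran from -0.67 to -0.41 (1 against -30), -1.14 to -0.60 (feeding, day 14), -0.94 to -0.79 (feeding before calving) and -0.67 to -0.39 (feeding after calving). S100A12 ran from 0.70 to 1.09 (1 against -14), -0.84 to -0.62 (28 against 14) and 0.90 to 1.08 (14 against -30).

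With cow as a fixed block, which pairs a cow's samples, SERPINA3-3 for day 1 against -30 stayed at -1.70 (adjusted p = 1.59e-07). Removing cow-days of agreement under 0.6 gave no value for comparisons with day 1 or for means per cow, and the fit on days -65, -30, 28 and 49 gave values within those days only. Over 22 settings the iron elements that rose from day -30 to day 1 numbered 3 to 9. Agreement between arrays was lowest on days 1 and 14.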
